A study of Mus musculus with 6 samples.

Results

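Fatty acid oxidation in the liver is represented here by 8 genes known as targets of the nuclear receptor PPARA: Cyp4a10, Cyp4a14, Acot1, Ehhadh, Acaa1b, Cpt1a, Acadm and Acaa2. They were taken by gene symbol, and all 8 were named by a probe set, 7 of them by 1 and Acaa1b by 2, which makes 9 of the 12488 probe sets on the array. Liver total RNA had been hybridised to 6 one-colour arrays, 1 for each combination of genotype and circadian time. The groups were Clock mutant, Cry-deficient and wild-type mice, each at CT14, early in the subjective night, and at CT02, early in the subjective day. All mice were males of 8 to 10 weeks, a C57BL/6 background was stated for the wild type alone, while neither the Clock allele nor any pooling of animals was stated. The CT02 array of the Cry-deficient mice was described as lacking both Cry1 and Cry2, and its CT14 partner as Cry deficient. Each group has a single array, so the spread between animals is unknown and no test was made. Ratios are given as sizes, and the number of arrays limits their precision.

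PPARA is switched on by fatty acids and by fibrate drugs, binds DNA together with RXRA, and raises the capacity of the liver to burn fat during fasting. Its targets work in several compartments. CYP4A enzymes of the endoplasmic reticulum hydroxylate the far end of a fatty acid (omega-oxidation), acyl-CoA thioesterases such as ACOT1 release free fatty acid from coenzyme A, peroxisomes shorten very long and dicarboxylic chains, and mitochondria, which admit long chains through CPT1A, complete the beta-oxidation. In mouse liver Ppara itself and several of these genes are known to follow the day, through the clock and through feeding.

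The receptor pair recognises a direct repeat of AGGTCA with 1 base of any kind between its copies. Promoter sequences of 5 of the 8 genes (Acot1, Ehhadh, Acaa1b, Cpt1a and Acadm) were at hand from RefSeq, assembly GRCm38.p6. The 250 bases before the start site are printed 5' to 3' on the strand of the gene for the mitochondrial pair Cpt1a and Acadm, which hold a single AGGTCA element (capitals, on the opposite strand), and for the peroxisomal pair Ehhadh and Acaa1b, which hold none and whose levels lay on opposite sides of wild type in the Clock mutant on the probe set used for each gene.
Cpt1a (chr19:3323051-3323300, plus strand): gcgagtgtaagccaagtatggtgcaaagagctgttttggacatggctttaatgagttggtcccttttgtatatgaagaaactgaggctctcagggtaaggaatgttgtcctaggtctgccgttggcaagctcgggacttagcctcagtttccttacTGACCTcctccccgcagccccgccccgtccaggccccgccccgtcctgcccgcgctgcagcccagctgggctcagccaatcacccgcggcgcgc
Acadm (chr3:153944644-153944893, minus strand): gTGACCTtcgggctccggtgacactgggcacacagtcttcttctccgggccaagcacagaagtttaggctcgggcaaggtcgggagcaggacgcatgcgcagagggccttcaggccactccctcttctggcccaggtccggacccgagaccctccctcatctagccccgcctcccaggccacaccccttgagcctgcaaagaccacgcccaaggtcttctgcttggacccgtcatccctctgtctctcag
Ehhadh (chr16:21787835-21788084, minus strand): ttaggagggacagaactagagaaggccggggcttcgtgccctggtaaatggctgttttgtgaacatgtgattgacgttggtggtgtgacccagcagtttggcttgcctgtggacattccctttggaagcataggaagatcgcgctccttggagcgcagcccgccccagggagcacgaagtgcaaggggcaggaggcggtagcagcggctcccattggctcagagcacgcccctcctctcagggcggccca
Acaa1b (chr9:119157094-119157343, minus strand): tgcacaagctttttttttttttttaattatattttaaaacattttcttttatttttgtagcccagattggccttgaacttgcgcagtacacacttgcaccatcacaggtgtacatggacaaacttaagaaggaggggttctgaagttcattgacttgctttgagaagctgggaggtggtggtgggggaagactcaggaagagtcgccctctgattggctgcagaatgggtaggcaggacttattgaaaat
On either strand, no promoter of the 5 held the repeat with up to 2 mismatches among its 12 fixed letters, which 3.24% of 32851 promoters did. The single element AGGTCA was found in 2 of the 5, 94 bases before the start of Cpt1a and 249 before that of Acadm, against 14% of all promoters. The E-box CACGTG, the element bound by CLOCK and BMAL1, and the D-box TTANGTAA, bound by DBP and TEF, were in none of the 5 (6.02% and 2.06% of all promoters). These counts describe these windows alone.

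Levels are in scaled units, the deposited intensity divided by a factor for each array. Values under the pooled median, 606 units, were set to that floor, and 4844 of 8251 named genes reached it on average. All 8 genes lay above the floor on every array, between 1923 and 23771 units. The arrays were not alike in quality. The Clock mutant CT02 array was the dimmest (mean deposited intensity 1637, against 2182 to 2486 on the others). Actb control probes near the 3' end, read over those near the 5' end, gave 2.68 on that array, 1.70 on the Cry-deficient CT02 array and 0.84 to 1.15 on the rest, and a high ratio can mark shortened RNA. The brightest 10% of genes, 485 in number, had a median log2 ratio to wild type of 0.23 on the dim array, and of -0.29 between the Clock mutant times (CT14 over CT02). Every ratio below that uses the dim array is to be read with these medians, which are repeated beside some of them only. The signal of the brightest of 3 Cry1 probe sets was 4718 units at CT14 and 3845 at CT02 in Cry-deficient mice, and 2723 and 1833 in wild type. Cry2 read 1344 and 1185 units in Cry-deficient mice, and 2256 and 1215 in wild type. Cry1 was thus not lower and Cry2 was lower at CT14, which checks nothing unless the probes fall inside the deletion, a position that was not known here. The arrays of these mice are therefore called Cry-labelled. Hepatocyte markers fitted the labelled tissue, with Alb, Apob, Ttr, Ahsg, Fgb, Apoa2 and Tat above the floor on all 6 arrays and Apoa1 on 3. Of other tissues that burn fat, Ucp1, Cidea, Myh7 and Tnnt2 stayed under the floor on every array, Acta1 was above it on 1, and the muscle gene Ckm was above it on all 6. Ckm read 2125 and 2338 units at CT14 and CT02 in the Clock mutant, 1472 and 1690 on the Cry-labelled arrays, and 919 and 1604 in wild type, and its part in the results was not tested. In RNA of whole liver, fewer cells of a type and less RNA per cell cannot be told apart.

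**Figure D1:**
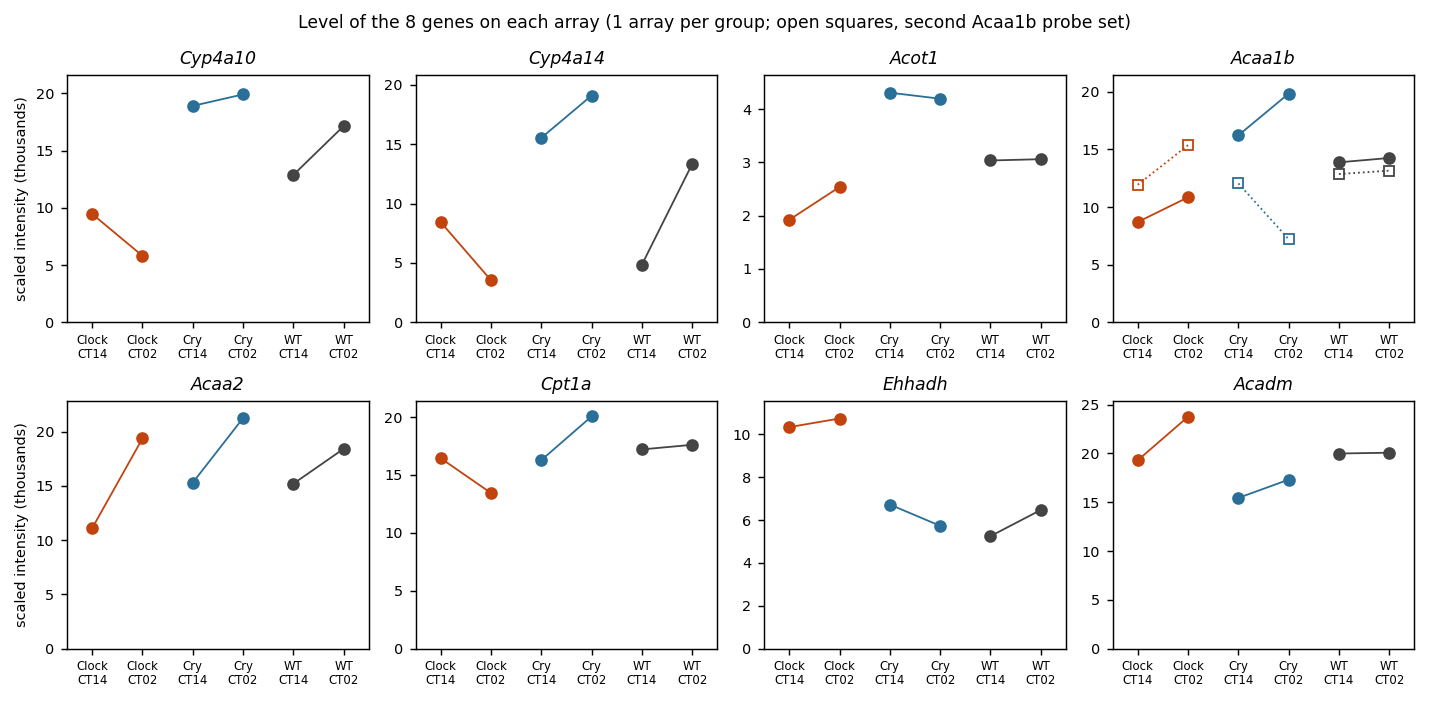
Scaled intensity (linear axis from 0, unit as marked on it) of the 8 genes on the 6 arrays, CT14 left of CT02 within each genotype, 1 point per array and no error because each group has 1 array. Lines join the arrays of a genotype, and open squares show the second Acaa1b probe set. Cyp4a14 spans 3541 to 19104 units, whereas Acadm stays between 15442 and 23771.

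Cyp4a10 and Cyp4a14 varied most. Both encode omega-hydroxylases, and they are neighbouring genes on mouse chromosome 4. Cyp4a14 read 8437 units at CT14 and 3541 at CT02 in the Clock mutant, 15538 and 19104 on the Cry-labelled arrays, and 4844 and 13331 in wild type. The highest array was 5.39-fold above the lowest. In wild type Cyp4a14 was 2.75-fold lower at CT14 than at CT02, the 20th lowest ratio of 4749 genes. In the Clock mutant the order was the other way, 2.38-fold higher at CT14. Among the Cry-labelled mice both times were high and differed little (1.23-fold lower at CT14). Against wild type, the Clock mutant was thus 1.74-fold higher at CT14 and 3.76-fold lower at CT02, and the Cry-labelled arrays were 3.21-fold higher at CT14 and 1.43-fold higher at CT02.

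Cyp4a10 varied over a narrower range, 3.43-fold between its highest and lowest array. Its probe set, whose name marks a family of like sequences, read 9465 and 5806 units at CT14 and CT02 in the Clock mutant, 18905 and 19911 on the Cry-labelled arrays, and 12874 and 17144 in wild type. Both Clock mutant arrays lay under both wild-type arrays, and both Cry-labelled arrays above them. The gene was 2.95-fold lower in the Clock mutant than in wild type at CT02 and 1.36-fold lower at CT14. In the Cry-labelled mice it was 1.47-fold higher at CT14 and 1.16-fold higher at CT02. The time ratio was 1.63-fold up at CT14 in the Clock mutant and 1.33-fold down in wild type. How far transcripts of related Cyp4a genes feed this probe set is uncertain.

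Other omega-oxidation genes did not share these sizes. Cyp4a12b, another member of the Cyp4a cluster, stayed between 15658 and 21396 units on all arrays and was 1.11-fold lower in the Clock mutant at CT02. Cyp4b1, Cyp4f13 and Aldh3a2, which oxidises the aldehydes that follow, were lower by 1.02 to 1.19-fold there on the probe sets used. The second Aldh3a2 probe set was lower by more, with 5194 and 5810 units at CT14 and CT02 in the Clock mutant, against 8578 and 8221 in wild type. The second Cyp4f13 probe set was under the floor on the Clock mutant CT02 array and read 909 units in wild type. The 5 markers of kidney, a tissue that also expresses Cyp4a genes, summed to 876 and 1136 units in the Clock mutant at CT14 and CT02 (values below 0 counted as 0), 3948 and 1696 on the Cry-labelled arrays, and 5713 and 4190 in wild type. Kap made up most of it in wild type and on the Cry-labelled CT14 array and was under the floor on the other 3, while Aqp2 and Slc12a1 were under it on all 6. The 6 markers of pericentral hepatocytes, the zone next to the central vein, summed to 59116 and 65054 units in the Clock mutant, 67265 and 84457 on the Cry-labelled arrays, and 71757 and 71937 in wild type. Among them Glul, which is confined to that zone, read 9100 and 4638 units in the Clock mutant, 14992 and 21507 on the Cry-labelled arrays, and 15059 and 15048 in wild type. The Clock mutant CT02 array had 2 of the 6 above wild type and 4 below. Those above were Rgn (25269 units, against 20057) and Oat (19810, against 17598). On the Cry-labelled CT02 array all 6 were above. The 5 markers of periportal hepatocytes, the opposite zone, summed to 44122 and 65840 units in the Clock mutant. The sums were 54030 and 71071 on the Cry-labelled arrays, and 55643 and 58206 in wild type. The 9 macrophage markers summed to 24094 and 23249 units in the Clock mutant, 30749 and 41511 on the Cry-labelled arrays, and 28732 and 29847 in wild type. Of these markers, 8 were higher than wild type on the Cry-labelled CT02 array and C1qa was lower (1508 against 4779 units). The part of these lists in the Cyp4a levels was not tested.

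Acot1, the cytosolic thioesterase, had the same order of genotypes at both times. It read 1923 and 2539 units at CT14 and CT02 in the Clock mutant, 4309 and 4197 on the Cry-labelled arrays, and 3036 and 3061 in wild type. Both Clock mutant arrays were below and both Cry-labelled arrays above the wild-type pair, whose 2 values differed by 1.01-fold. The Clock mutant was 1.58-fold lower than wild type at CT14 and 1.21-fold lower at CT02, and the Cry-labelled arrays were 1.42-fold and 1.37-fold higher. Of the other thioesterases kept, Acot13 was 1.96-fold above wild type in the Clock mutant at CT02, Acot9 1.53-fold above it in the Clock mutant at CT14, and Acot8, a peroxisomal thioesterase, 1.46-fold lower on the Cry-labelled CT02 array. Acot7 lay under the floor on both Clock mutant arrays and on the wild-type CT02 array.

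Ehhadh was the gene of the 8 for which both Clock mutant arrays lay above wild type. It encodes the peroxisomal bifunctional enzyme, which hydrates and then dehydrogenates the chain. Its level was 10340 units at CT14 and 10742 at CT02 in the Clock mutant, 6725 and 5731 on the Cry-labelled arrays, and 5247 and 6469 in wild type. The Clock mutant arrays were above all 4 others, by 1.97-fold over wild type at CT14 and 1.66-fold at CT02. The Cry-labelled arrays overlapped wild type (1.28-fold higher at CT14, 1.13-fold lower at CT02). The 4 adipocyte markers, among which Retn stayed under the floor and Adipoq was above it on 1 array, summed to 7430 and 8136 units in the Clock mutant, 5439 and 4473 on the Cry-labelled arrays, and 4534 and 5495 in wild type. Lep made up most of each sum. It read 5658 and 6286 units in the Clock mutant, 4094 and 3208 on the Cry-labelled arrays, and 3290 and 4316 in wild type. The part of these markers in the Ehhadh level was not tested.

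Acaa1b encodes a peroxisomal thiolase, the enzyme that cleaves off acetyl-CoA, and its 2 probe sets disagreed. The brighter one, used for the gene, read 8704 and 10848 units at CT14 and CT02 in the Clock mutant, 16224 and 19850 on the Cry-labelled arrays, and 13884 and 14261 in wild type. On it the Clock mutant was below wild type at both times (log2 ratios of -0.67 at CT14 and -0.39 at CT02), and the Cry-labelled arrays above (0.22 and 0.48). The other read 11939 and 15373 units in the Clock mutant, 12053 and 7209 on the Cry-labelled arrays, and 12866 and 13161 in wild type. There the Cry-labelled CT02 array was the lowest, 1.83-fold under wild type, and the Clock mutant overlapped wild type. The close relative Acaa1a, which can share probes with Acaa1b, read 16340 and 21256 units in the Clock mutant, 15748 and 19369 on the Cry-labelled arrays, and 17223 and 16048 in wild type. On the Cry-labelled CT02 array Acaa1a was 1.21-fold above wild type. Whether its transcript feeds either Acaa1b probe set was not tested. Levels of different probe sets are not compared here.

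The mitochondrial genes differed by smaller factors. Cpt1a, whose product attaches long chains to carnitine at the outer membrane and sets the pace of their entry, read 16446 and 13442 units at CT14 and CT02 in the Clock mutant, 16280 and 20056 on the Cry-labelled arrays, and 17207 and 17607 in wild type. Its largest genotype difference was 1.31-fold, lower in the Clock mutant at CT02, where the brightest genes as a group were higher. Acadm, the medium-chain acyl-CoA dehydrogenase, read 19302 and 23771 units in the Clock mutant, 15442 and 17317 on the Cry-labelled arrays, and 19995 and 20078 in wild type. It was the gene of the 8 for which both Cry-labelled arrays lay under wild type, by 1.29-fold at CT14 and 1.16-fold at CT02. Its log2 ratio in the Clock mutant was 0.24 at CT02, -0.05 after quantile normalization. Acaa2, the mitochondrial thiolase, read 11084 and 19356 units in the Clock mutant, 15284 and 21233 on the Cry-labelled arrays, and 15185 and 18404 in wild type. It was lower at CT14 than at CT02 in every genotype, by 1.75-fold in the Clock mutant, 1.39-fold on the Cry-labelled arrays and 1.21-fold in wild type.

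**Figure D2:**
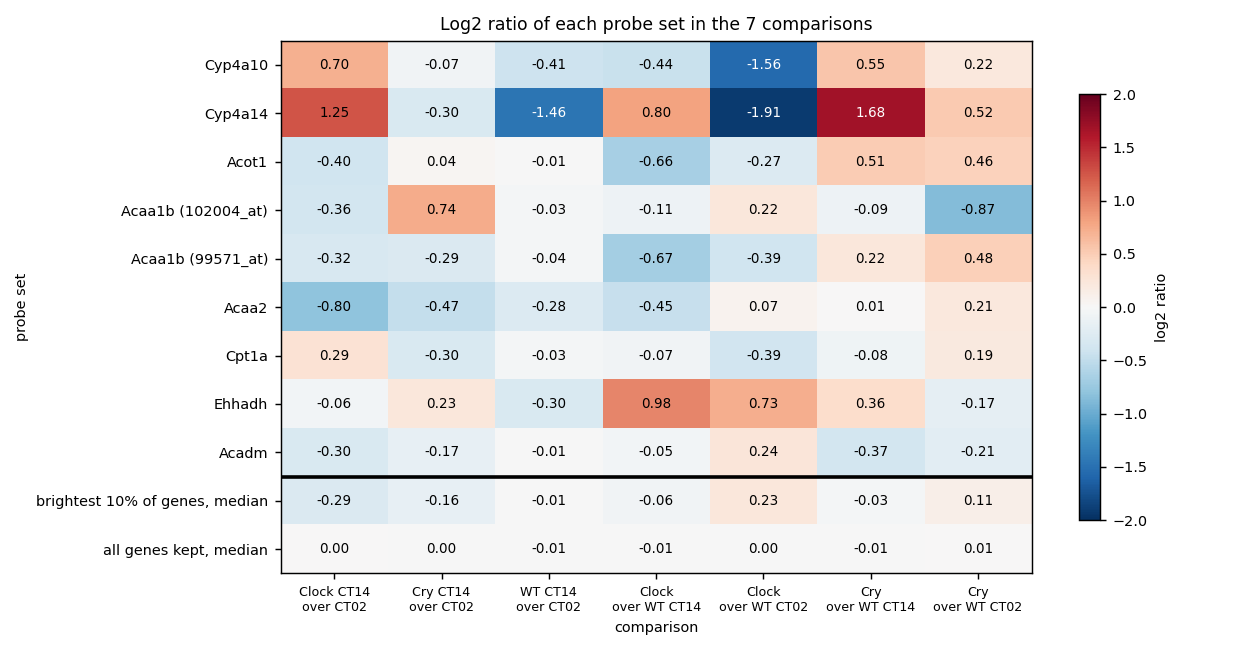
Log2 ratio (colour and printed value, red higher in the group named first) of the 9 probe sets in the 7 comparisons, with the medians of the brightest 10% of genes and of all 4844 genes under the line. The ratios past 2-fold (size 1 on the log2 scale) belong to Cyp4a14 and Cyp4a10, and the Acaa1b probe sets differ in sign on the Cry-labelled CT02 array.

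Across the 56 ratios of the 8 genes (1 probe set each, 7 comparisons), 5 were at least 2-fold, 4 of Cyp4a14 and 1 of Cyp4a10. The other 6 genes spanned 1.49-fold to 2.28-fold between their highest and lowest array, and none of their ratios reached 2-fold. In wild type, 1 of the 8 was at least 2-fold apart between the times, where 4.56% of all genes were, and it was lower at CT14, as 2.09% were. All 8 were lower at CT14, by any size, as were 50% of all genes, with a median log2 ratio of -0.16, but Acot1 and Acadm changed sign in the values as deposited. Cyp4a14, Cyp4a10, Ehhadh and Acaa2 were lower by 1.21-fold or more, and Acot1, Acaa1b, Cpt1a and Acadm by at most 1.03-fold. Within the Clock mutant 1 of 8 was at least 2-fold apart (7.74% of all genes), and it was higher at CT14 (4.31%). The median was -0.18 beside -0.29 for the brightest genes, and 0.03 after quantile normalization and 0.32 as deposited. Between the times of the Cry-labelled mice 0 of 8 were 2-fold apart (5.55%), with a median of -0.23 beside -0.16.

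Against wild type, 2 of the 8 genes were at least 2-fold lower in the Clock mutant at CT02 (7.51% of all genes were, and 11.8% were 2-fold apart either way), and 0 of 8 were 2-fold apart at CT14 (9.76%). The medians were -0.25 at CT14 and -0.33 at CT02. For the Cry-labelled mice 1 of 8 was 2-fold higher at CT14 (2.46%, and 4.73% either way) and 0 of 8 at CT02 (6.69% either way), with medians of 0.29 and 0.21. At each time 6 of 8 were higher on the Cry-labelled arrays, and 47.2% and 50% of all genes were at CT14 and CT02. Of the 485 brightest genes, 177 were higher at CT14 and 357 at CT02. With the other Acaa1b probe set the count is 5 of 8 at each time. Both Clock mutant arrays lay under both wild-type arrays for 4 of 8 (Cyp4a10, Acot1, Acaa1b and Cpt1a), as for 24.6% of all genes, and above them for Ehhadh alone (23.6%). Both Cry-labelled arrays lay above for 4 of 8 (Cyp4a10, Cyp4a14, Acot1 and Acaa1b), as for 18.2% of all genes, and below for Acadm alone (20.2%). Acaa1b counts in both groups of 4 on its brighter probe set and in neither on the other, on which both Cry-labelled arrays lay below. Both mutants are set against the same 2 wild-type arrays, so the opposite directions of Cyp4a10, Acot1 and Acaa1b are not independent readings.

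The time ratio of the Clock mutant minus that of wild type was 2.71 on the log2 scale for Cyp4a14 and 1.12 for Cyp4a10, and between -0.53 and 0.32 for the other 6. A difference of at least 1 in either direction was seen in 12.6% of all genes. For the Cry-labelled mice that difference was 1.16 for Cyp4a14 (10.1% of all genes were at least 1 apart), 0.53 for Ehhadh and 0.34 for Cyp4a10.

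The wider pathway was read from lists of omega-oxidation, thioesterase, peroxisomal, carnitine, mitochondrial, ketone body, uptake and other PPARA target genes. Of 84 genes beside the 8, a probe set named 52, and 45 passed the floor. The 4 ketone body genes of the list are among the 84 and were not analysed here. Most of the 45 stayed close to wild type: their median log2 ratio was -0.05 at CT14 and 0.07 at CT02 in the Clock mutant, and -0.04 and 0.09 on the Cry-labelled arrays. In the Clock mutant 0 of 45 were at least 2-fold from wild type at CT14, and 2 were higher and 2 lower at CT02. For the Cry-labelled mice 1 was higher and 1 lower at CT14, and 1 was higher at CT02. As shares of 45 these counts are under the shares of all genes given above. Between the times, 1 of 45 was 2-fold higher at CT14 in wild type, 1 higher and 1 lower in the Clock mutant, and 1 lower on the Cry-labelled arrays.

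**Figure D3:**
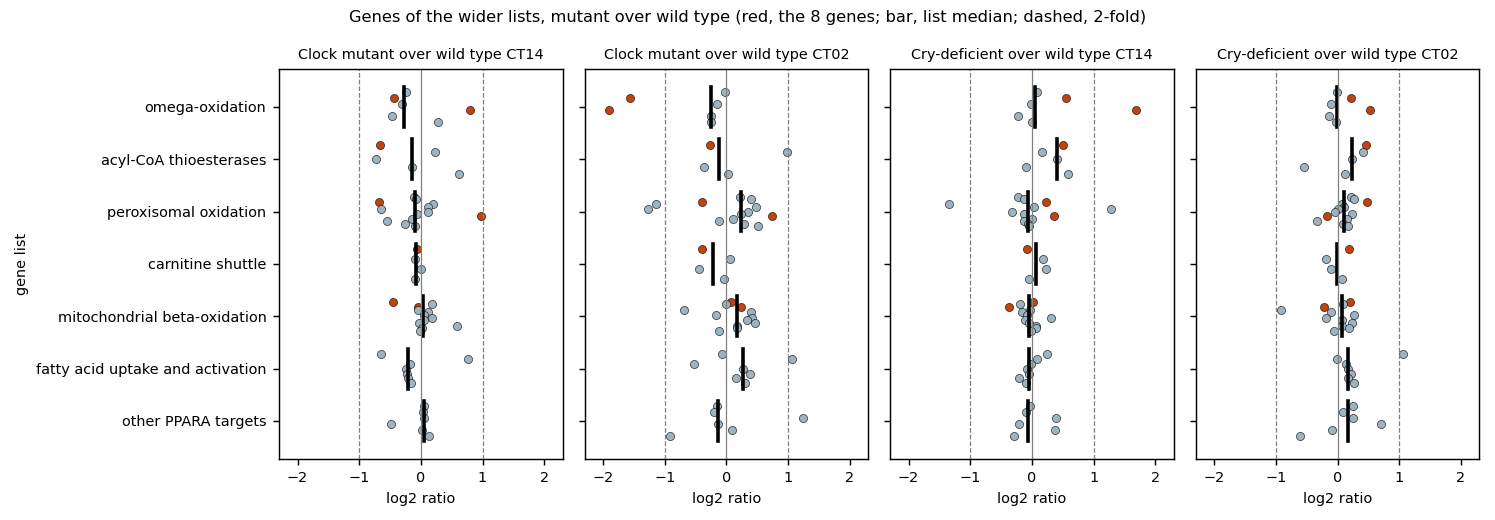
Log2 ratio to wild type (horizontal axis) of each gene of 7 lists, for the Clock mutant and the Cry-labelled arrays at each time. Red points are the 8 genes, grey-blue points the other list genes, bars the list medians and dashed lines 2-fold. The Cyp4a10 and Cyp4a14 points of the Clock mutant CT02 array lie at -1.56 and -1.91, and most other points lie within 2-fold of wild type.

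Among the 13 peroxisomal genes kept, Ehhadh and Acaa1b included, the medians were -0.10 and 0.23 in the Clock mutant at CT14 and CT02 and -0.06 and 0.11 on the Cry-labelled arrays. Amacr, a racemase for branched chains, stood apart on single arrays. It read 6495 and 2582 units at CT14 and CT02 in the Clock mutant, 2242 and 6020 on the Cry-labelled arrays, and 5669 and 5718 in wild type. The low arrays were thus the Clock mutant at CT02 and the Cry-labelled mice at CT14, 2.21-fold and 2.53-fold under wild type. Crat, a carnitine acetyltransferase, was under the floor on both Clock mutant arrays and read 2299 and 1457 units on the Cry-labelled arrays, against 950 and 1458 in wild type. It was at least 2.40-fold lower than wild type on the Clock mutant CT02 array and 2.42-fold higher on the Cry-labelled array at CT14. Pex11a, which drives peroxisome division, was 1.47-fold lower in the Clock mutant at CT14. Scp2, Cat, Acaa1a and Ech1 were 1.43, 1.39, 1.32 and 1.28-fold higher on the Clock mutant CT02 array, when the brightest genes as a group were 0.23 higher on the log2 scale. The second Cat probe set read 1974 units on that array and 1899 in wild type.

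The 12 mitochondrial beta-oxidation genes kept, Acadm and Acaa2 included, had medians of 0.03 and 0.17 in the Clock mutant at CT14 and CT02 and of -0.04 and 0.07 on the Cry-labelled arrays, with 0 of 12 at least 2-fold apart in any of the 4. Acads, the short-chain dehydrogenase, read 7917 and 5173 units in the Clock mutant, 7949 and 4415 on the Cry-labelled arrays, and 8176 and 8341 in wild type. Both mutants were low at CT02, by 1.61-fold and 1.89-fold, on the arrays with the raised Actb ratio, and the second Acads probe set read 1896 on the Clock mutant and 2319 on the Cry-labelled CT02 array, against 2463 in wild type. Etfdh, which passes electrons to the respiratory chain, had a log2 ratio to wild type of 0.59 in the Clock mutant at CT14. In the carnitine shuttle Cpt2, Slc25a20 and Slc22a5 were within 1.17-fold of wild type on the Cry-labelled arrays, and Slc22a5 was at least 1.36-fold lower in the Clock mutant at CT02, where it was under the floor.

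Of 7 uptake and activation genes, Acsl5 separated the Clock mutant from the rest. This enzyme, which couples long chains to coenzyme A, read 14364 and 19588 units at CT14 and CT02 in the Clock mutant, 8977 and 9331 on the Cry-labelled arrays, and 8465 and 9416 in wild type. Both Clock mutant arrays were above the other 4, by 1.70-fold over wild type at CT14 and 2.08-fold at CT02. Acsl4 read 3808 and 2188 units in the Clock mutant, 7011 and 4804 on the Cry-labelled arrays, and 5936 and 2295 in wild type, where it was 2.59-fold higher at CT14, and its second probe set lay near the floor. Fabp1, the liver fatty acid binding protein and a classical PPARA target, was within 1.31-fold of wild type in all 4 comparisons on the probe set used. Its second probe set lay near the floor, and was under it on the Cry-labelled CT02 array, against 932 units in wild type.

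Of the other PPARA targets, 6 were kept. Vnn1, which encodes a pantetheinase, read 6341 and 3277 units in the Clock mutant, 4709 and 4050 on the Cry-labelled arrays, and 5773 and 6195 in wild type, and was 1.89-fold lower in the Clock mutant at CT02. Pdk4, which shuts off pyruvate oxidation, read 630 and 1818 units in the Clock mutant, 795 and 921 on the Cry-labelled arrays, and in wild type lay under the floor at CT14 and read 770 at CT02. The Clock mutant CT02 array was thus 2.36-fold above wild type. Plin2, a lipid droplet protein, was 1.63-fold higher on the Cry-labelled array than in wild type at CT02 and 1.40-fold lower in the Clock mutant at CT14. Angptl4, Mlycd and Retsat were within 1.3-fold of wild type in all 4 comparisons on the probe set used. The other Angptl4 probe set above the floor on all 6 arrays disagreed, with 3164 and 2808 units in the Clock mutant, 3627 and 4441 on the Cry-labelled arrays, and 2117 and 4346 in wild type. Vnn1, Amacr and Acads were low on the dim Clock mutant CT02 array together with Cyp4a10 and Cyp4a14, and the part of that array's quality was not tested.

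Ppara itself read 10527 and 8160 units at CT14 and CT02 in the Clock mutant, 5405 and 7254 on the Cry-labelled arrays, and 10608 and 11017 in wild type. Both Cry-labelled arrays were the lowest, 1.96-fold and 1.52-fold under wild type, and the levels of the 8 targets on these arrays are those given above. Ppara in the Clock mutant was 1.35-fold lower at CT02 and differed by 1.01-fold at CT14. Rxra read 3690 and 3455 units in the Clock mutant, 3518 and 1959 on the Cry-labelled arrays, and 4020 and 2667 in wild type. Its second probe set was under the floor on both the Clock mutant and the wild-type CT02 array. Hnf4a, a liver transcription factor gene, was 4.64-fold lower on the Cry-labelled CT02 array than in wild type. Esrra was 3.16-fold lower there on the probe set used, and the co-activator gene Med1 at least 2.80-fold lower. The second Esrra probe set lay near the floor and was not lower, with 613 units on that array and a wild-type CT02 value under the floor. Lpin1, which also acts as a co-activator of PPARA, was 4.05-fold higher (2782 units, against 688 in wild type, near the floor). On that array the 3' over 5' ratio of Gapdh was 2.37, against 0.56 to 0.72 on the others, and its part was not tested. Ppargc1a, Ppard, Pparg and Rxrg lay under the floor on all 6 arrays. Of the D-box factors, Tef read 3552 and 2939 units in the Clock mutant, 6790 and 7680 on the Cry-labelled arrays, and 6350 and 2543 in wild type, and Dbp was above the floor on both Cry-labelled arrays (2259 and 1836), at 750 in wild type at CT14, and under it elsewhere.

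**Figure D4:**
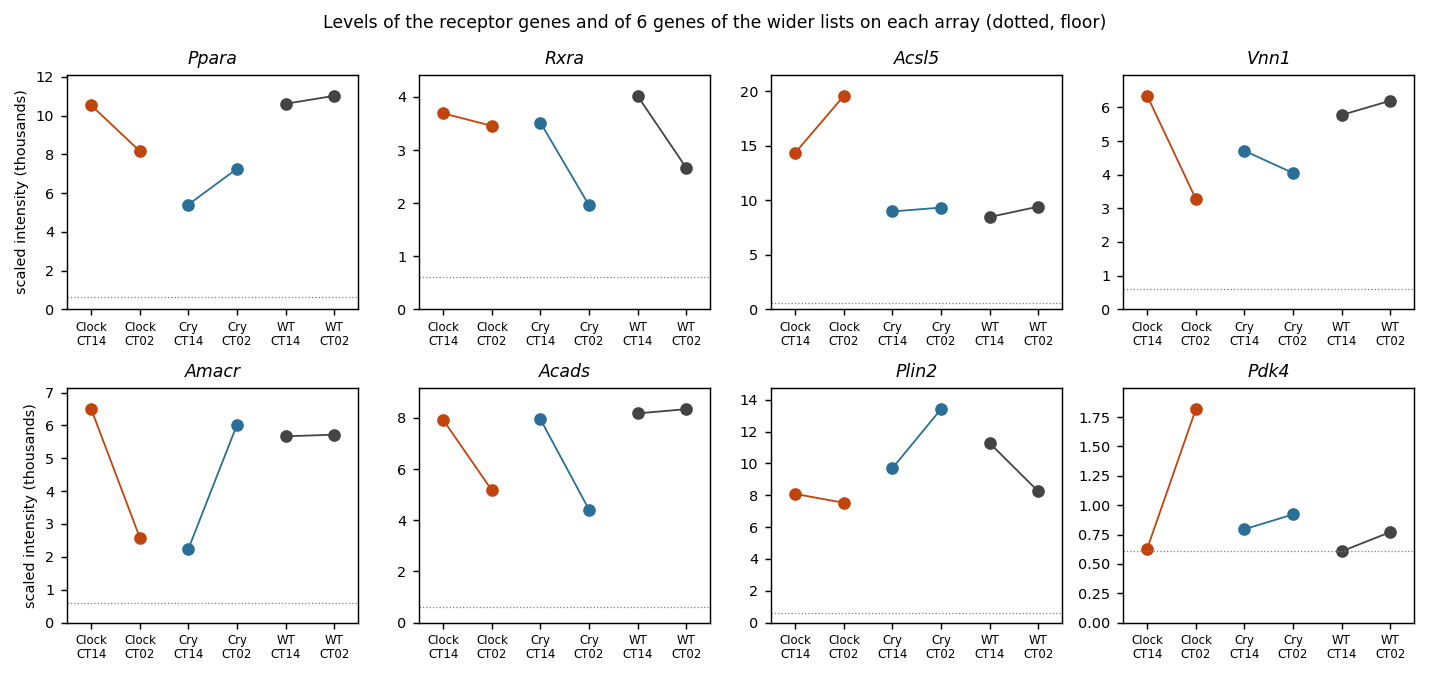
Scaled intensity (linear axis from 0, unit as marked on it) of Ppara, Rxra and 6 genes of the wider lists on the 6 arrays, CT14 left of CT02, 1 array per group. The dotted line is the floor of 606 units, and values under it are drawn on it. Ppara is lowest on the Cry-labelled arrays (5405 and 7254), and Acsl5 is highest in the Clock mutant (14364 and 19588).

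Genes of fatty acid synthesis, the opposing pathway, are given for scale. In the Clock mutant the 8 that were kept had medians of -0.42 at CT14 and 0.98 at CT02 (log2 ratio to wild type), where the 8 oxidation genes had -0.25 and -0.33. For the Cry-labelled mice the medians were -0.24 and 0.10 for synthesis and 0.29 and 0.21 for oxidation. The difference between the lists was not tested.

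Over the 6 arrays, the mean of the 8 centred log2 profiles was highest on the Cry-labelled CT02 array (0.36) and lowest on the Clock mutant CT02 array (-0.29). That mean did not describe all 8, although each gene is part of it. Ehhadh and Acadm correlated with it at r = -0.64 and -0.72 and Acaa2 at 0.50. Cyp4a14, Cyp4a10, Acaa1b, Acot1 and Cpt1a correlated at 0.91, 0.90, 0.89, 0.85 and 0.74. The profile of Cyp4a14 correlated with that of Cyp4a10 at r = 0.87, of Cpt1a at 0.75, of Acaa1b at 0.64, of Acot1 at 0.61, of Acaa2 at 0.15, of Ehhadh at -0.44, of Acadm at -0.82 and of Ppara at -0.40. Outside the lists, the 5 of 3805 genes most like the mean profile by Pearson's r were Wbp1l (0.99), Fam107b (0.99), Tek (0.99), Abcb4 (0.98) and Ulk2 (0.98), and those most like Cyp4a14 were Peli1, Nckap1, Cul1, Slk and Tnpo1 (0.98 to 0.99). Their highest arrays were at most 2.45-fold above their lowest. The 6 points of each profile share their scaling factors, and these r are a description.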

How the data were processed

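Liver RNA of 6 groups was measured on 1 array each. The authors' deposited values are intensities, 1 for each probe set and array, whole numbers above and below 0. No header or label names the software or the background subtraction behind them. Titles gave the groups.

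Scaling used 6065 probe sets, positive on all arrays and in the upper part by mean: an array was divided by its median ratio there to the geometric mean of the 6. The log2 factor was -0.43 for the Clock mutant CT02 array and between -0.004 and 0.20 for the others. Values were floored at the pooled median (606) before log2. A ratio to a floored value is a bound, "at least".

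Probe sets were named from the platform annotation (10855 with 1 symbol, 396 with several and 1237 with none, the last 2 kinds not used), and 10839 matched the RefSeq table of GRCm38.p6, which was used for names and gene order. A gene took its brightest probe set, and genes with a mean at the floor or above were kept. No test was made. Named beyond the 8 are Ppara, Rxra and genes among the 4 largest ratios of each list and comparison; Acaa1a, Fabp1 and markers were named for their role. Genes most alike in profile were the 5 with the highest r. The procedure was tested on simulated data. The members and lists were chosen with earlier results of these data known. Python 3.11.15, numpy 2.4.6, pandas 2.3.3 and statsmodels 0.14.6 were used.

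The alternatives tried were quantile normalization, lowess (span 0.3), unscaled values, a lower floor (25th percentile), either no filter or a stricter one (75th percentile), averaged probe sets, probe sets with no letter in the name, scaling without either CT02 mutant array, and a 3-fold threshold.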

Additional observations from a re-analysis of the deposited data

Results flagged for a closer look

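Among the oxidation, receptor and D-box lists, 5 cases had opposite time differences in a mutant and in wild type, with each of the time ratios at least 1.2-fold and the gap between them at least 2-fold. The difference was not tested. The share of all genes that meet this rule was not computed, so the count of 5 is a description alone. For Cyp4a14 the log2 ratio of CT14 over CT02 was 1.25 in the Clock mutant and -1.46 in wild type, a difference of 2.71. For Cyp4a10 it was 0.70 in the Clock mutant and -0.41 in wild type (1.12), and for the receptor gene Rxrb 0.83 and -0.31 (1.14). On the Cry-labelled arrays Crat had a ratio of 0.66 against -0.62 in wild type (1.28), and Lpin1 one of -0.58 against 2.73 (-3.30). The 3 Clock mutant cases use the dim CT02 array, and the Cry-labelled cases use the CT02 array with raised Actb and Gapdh ratios. Crat, however, read 1457 units on that array and 1458 in wild type at CT02, and differed at CT14 (2299 against 950). Lpin1 differed at both times, with 1862 and 2782 units at CT14 and CT02 on the Cry-labelled arrays. In wild type it read 4546 and 688, the last near the floor.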

How the results depend on the processing

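No paired analysis was possible because each group has 1 array, and leaving out a replicate was not possible either. Of the medians and counts over all alternatives, 265 values stayed within 1.5-fold of the value reported, 27 moved further and 2 reversed. A median whose sign changed by a small amount also counted as staying, as that of the 8 genes within the Clock mutant did after quantile normalization. Of the members' single ratios 549 stayed within 1.5-fold and 4, all of Acaa1b, moved further. Staying within 1.5-fold includes ratios that changed sign: 33 did in all, 10 of 56 unscaled, 8 each after quantile normalization and lowess, 5 with scaling without the Cry-labelled CT02 array and 2 with averaged probe sets. The Cyp4a14 ratios kept their direction in every alternative: 1.25 to 1.75 within the Clock mutant, -1.50 to -1.43 within wild type, -2.47 to -1.89 for the Clock mutant CT02 array against wild type, and 1.68 to 1.75 for the Cry-labelled array over wild type at CT14. Unscaled values reversed the medians within the Clock mutant, to 0.32 for the 8 genes and 0.29 for the wider genes, where the median of all genes was itself 0.47 and 93.1% of the 2-fold genes were higher (55.7% after scaling). For the Clock mutant CT02 array against wild type that share was 5.62% unscaled and 36.1% scaled. Unscaled, 2 of the 8 genes and 5 wider genes were 2-fold apart within the Clock mutant, and 3 wider genes within the Cry-labelled pair. Quantile normalization, lowess and scaling without the Clock mutant CT02 array each put 1 of the 8 past 2-fold for the Clock mutant CT14 array against wild type, which was Ehhadh. Scaling without the Cry-labelled CT02 array chose the other Acaa1b probe set, with log2 ratios of 0.74 within the Cry-labelled pair, 0.23 (Clock mutant) and -0.86 (Cry-labelled) against wild type at CT02, and averaging both probe sets gave -0.20 for that last ratio. With the lower floor, 6 wider genes were 2-fold apart within the Clock mutant, 3 within the Cry-labelled pair, 4 and 8 on the Clock mutant CT14 and CT02 arrays against wild type, and 3 in the Cry-labelled array at CT02, and 1008 to 1826 of 6791 genes were 2-fold apart in all comparisons (221 to 570 of 4844 with the floor used). With the stricter filter 1 wider gene was 2-fold apart within the Clock mutant, 2 on its CT02 array against wild type and 1 in the Cry-labelled array at CT14. With averaged probe sets the wider count was 0 within wild type, 1 in the Cry-labelled array over wild type at CT14 and 0 at CT02. Leaving out probe sets with a letter in the name left 1 of the 8 past 2-fold in the Clock mutant at CT02, since the Cyp4a10 probe set was not used. At 3-fold, 0 of the 8 passed within the Clock mutant and within wild type, 1 passed in the Clock mutant at CT02, and 0 wider genes passed in any comparison. Elsewhere the cause was not tested. Signal near the floor limits Crat, Pdk4, Acot7 and Slc22a5, whose ratios can be bounds. It also limits the Lpin1 ratios that use the wild-type CT02 array, where that gene read 688 units.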
